A study of Homo sapiens with 9 samples.

Results

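CD82, CD81 and ICAM3 encode 3 leukocyte surface proteins, and their transcripts were followed across all 9 arrays of a drug study in macrophage-like THP-1 cells. The genes were found by their symbol in the annotation of the array's rows: each of the 3 symbols names exactly 1 row, which gives 3 rows of 53617 in the deposited table and 3 genes of the 14884 that could be named. They were picked with their values on these arrays already known, and the values that decided the choice are not recorded, so their levels and group differences are given as a description, without a test. THP-1 is a single established human monocytic leukaemia line, and every group, controls included, had first been turned into an M0 macrophage-like state with the phorbol ester PMA, with no dose or duration named in the labels. The groups then received vehicle, cisplatin at 0.5 µM (a platinum compound that crosslinks DNA) or osimertinib at 100 nM (a kinase inhibitor designed against mutated EGFR, to which it binds covalently) for 16 h. The series' design text calls the 3 replicates of a group biological and independent, without saying whether they came from separate cultures, so p-values measure the spread between these samples. RNA of each replicate was read on 1 Affymetrix Human Gene 2.0 ST array. With 9 arrays, precision is limited by their number, and array data carry no read depth.

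Tetraspanins are small proteins that cross the membrane 4 times in the textbook model and gather integrins, immunoglobulin-type partners and metalloproteases into membrane domains. CD82 (also known as KAI1) is known as a suppressor of metastasis that restrains integrin-dependent adhesion and receptor signalling. CD81 is known as an entry receptor of hepatitis C virus, and it is a common constituent of exosomes. ICAM3 belongs to the intercellular adhesion molecules, immunoglobulin-type ligands of the leukocyte integrins. It is found on resting leukocytes, binds the integrin LFA-1 and the lectin DC-SIGN (the product of CD209), and has been described as a tether between apoptotic leukocytes and phagocytes.

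The labelled cell type was set against 14 monocyte and macrophage markers, of which 8 had a named row and 5 reached the level limit used for testing, a mean of 4.28 log2 units over the 9 arrays. CD68, CSF1R, SPI1 and TYROBP stood at means of 9.71, 8.83, 7.22 and 7.58, and CD14 at 4.30, only just above that limit. LYZ, MARCO and CD163 stood below it, at 3.25, 3.19 and 2.43. In vehicle cells the summed level of the 8 markers was 45.5 to 45.9 log2 units, with cisplatin 46.6 to 47.8 and with osimertinib 45.9 to 47.0. Of the 5 tested markers 2 rose with each drug by limma with Benjamini-Hochberg adjustment: CD68 by 0.51 (SE 0.056, adjusted p = 1.97e-05) with cisplatin and 0.30 (SE 0.056, adjusted p = 0.0012) with osimertinib, and CSF1R by 0.50 (SE 0.0676, adjusted p = 1.05e-04) and 0.29 (SE 0.0676, adjusted p = 0.00554). Over all tested genes 16.5% were called higher with cisplatin and 16.9% with osimertinib, and with 5 markers nothing is read from the count. CD68 and CSF1R moved in the same direction as CD82 and ICAM3, and their part in those differences was not tested. In bulk RNA such as this, fewer cells of a type and less RNA per cell cannot be told apart. Of the T cell markers 7 of 10 were named and 1 was tested (CD8A, not called in either comparison with vehicle). Of 7 B cell markers 3 were named and 2 tested, and CD22 fell by 0.98 with osimertinib (limma adjusted p = 1.88e-05), while PAX5 stood at 0.35 (adjusted p = 0.064). Of 7 NK cell markers 4 were named and 2 tested, and PRF1 rose by 0.61 with cisplatin (limma adjusted p = 0.00221), where NKG7 stood at 0.35 (adjusted p = 0.0527). Of 7 fibroblast markers 2 were named, both under the level limit. The part of these markers in the results was not tested. EGFR, the receptor that osimertinib is aimed at, was below the limit, at 2.89 ± 0.15 with vehicle (SD, n = 3), 2.88 with cisplatin and 2.89 with osimertinib.

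CD82 was the member with the largest difference. Its level on the 3 vehicle arrays was 5.61, 5.57 and 5.47 log2 units. On the cisplatin arrays it was 6.73, 6.84 and 6.71, and on the osimertinib arrays 6.67, 6.74 and 6.54. Every treated array lay above every vehicle array, and the gap between the highest vehicle and the lowest treated array was far wider than the spread inside any group. The mean was 5.55 ± 0.0742 in the vehicle group, 6.76 ± 0.0705 in the cisplatin group and 6.65 ± 0.103 in the osimertinib group (SD, n = 3 each). CD82 (Entrez gene 3732) was thus 2.32-fold higher with cisplatin, a log2 difference of 1.22 with a moderated SE of 0.0868 and a 95% interval from 1.03 to 1.40. With osimertinib it was 2.15-fold higher, by 1.10 (SE 0.0868, 95% interval from 0.92 to 1.29). Both differences are taken from the same 3 vehicle arrays. Ordered from the largest rise to the largest fall, CD82 ranked 32 among the 7442 tested genes with cisplatin and 35 with osimertinib.

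Between the drugs, which were given at different doses, CD82 was lower with osimertinib by a log2 difference of -0.11, with a 95% interval from -0.30 to 0.08. The cisplatin and osimertinib arrays overlapped: the highest osimertinib array, 6.74, lay above the lower 2 of the cisplatin arrays.

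**Figure D1:**
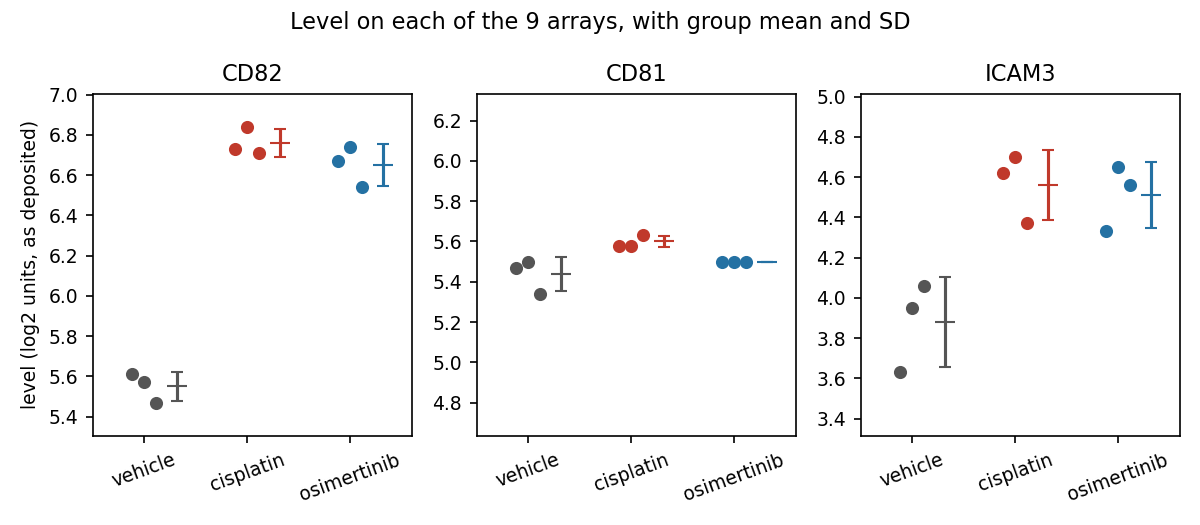
Level of CD82, CD81 and ICAM3 on each array (vertical axes in log2 units as deposited, each spanning the same range; dots are arrays in the order of replicate 1 to 3, bars are the group mean and SD, n = 3). CD82 and ICAM3 lie higher on all 6 treated arrays than on any vehicle array, while CD81 stays between 5.34 and 5.63 throughout, with 1 equal value on all 3 osimertinib arrays.

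CD81 was nearly level across the groups. Its values were 5.47, 5.50 and 5.34 on the vehicle arrays and 5.58, 5.58 and 5.63 on the cisplatin arrays. All 3 osimertinib arrays held 1 equal value, 5.50, so the spread of CD81 in that group is not known. The cisplatin arrays lay above the vehicle arrays by a narrow margin, and the osimertinib value tied with the highest vehicle array. Means were 5.44 ± 0.0842 with vehicle and 5.60 ± 0.0273 with cisplatin (SD, n = 3 each). The log2 difference of CD81 (Entrez gene 975) was 0.16 with cisplatin (SE 0.0891, 95% interval from -0.04 to 0.35), or 1.11-fold. With osimertinib it was 0.06 (SE 0.0891, 95% interval from -0.13 to 0.25), or 1.04-fold. Both intervals include 0, and their upper bounds are 1.27-fold and 1.19-fold. The SE pools the spread of all 3 groups, 1 of which shows none. Equal values on all 3 arrays of a group occurred in 207 tested genes (2.78%), 89 of them in the osimertinib group. Between the drugs CD81 differed by -0.09 (95% interval from -0.29 to 0.10), and the osimertinib value lay below all 3 cisplatin arrays, a separation of arrays that held for 14.3% of tested genes in that comparison (7.44% above and 6.88% below).

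ICAM3 was higher on the treated arrays too, from a vehicle level under the level limit. Its vehicle arrays were at 3.63, 3.95 and 4.06 log2 units. The cisplatin arrays were at 4.62, 4.70 and 4.37 and the osimertinib arrays at 4.33, 4.65 and 4.56. All treated arrays lay above all vehicle arrays, and the drug groups covered nearly the same range. The vehicle mean was 3.88 ± 0.224, the cisplatin mean 4.56 ± 0.173 and the osimertinib mean 4.51 ± 0.164 (SD, n = 3 each), so ICAM3 varied more between replicates than CD82. ICAM3 (Entrez gene 3385) was 1.61-fold higher with cisplatin, by 0.68 (SE 0.142, 95% interval from 0.38 to 0.99), and 1.55-fold higher with osimertinib, by 0.63 (SE 0.142, 95% interval from 0.33 to 0.94). Ordered from the largest rise to the largest fall, it ranked 194 and 269 among the 7442 tested genes. The vehicle mean of ICAM3 lies under the level limit of 4.28 and its mean over all arrays, 4.32, just over it, with 114 tested genes below. It therefore entered the tested set only through the treated groups. Between the drugs ICAM3 differed by -0.05 (95% interval from -0.36 to 0.25). Leaving out vehicle replicate 1, the lowest array, gave 0.56 with cisplatin and 0.51 with osimertinib.

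All 3 genes passed the level limit. Groups that do not overlap were common in this study: cisplatin and vehicle arrays were fully separated for 42.3% of tested genes (22.5% above vehicle and 19.8% below), and osimertinib and vehicle arrays for 44.1% (24.6% above and 19.5% below). By limma with an adjusted p under 0.05, 31.0% of tested genes were called with cisplatin (16.5% higher and 14.5% lower) and 30.6% with osimertinib (16.9% higher and 13.7% lower). Between the drugs 1.75% were called (0.766% higher and 0.981% lower with osimertinib). The separation of CD82 and ICAM3 from vehicle was one of the values that may have chosen them and is not read against these shares.

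**Figure D2:**
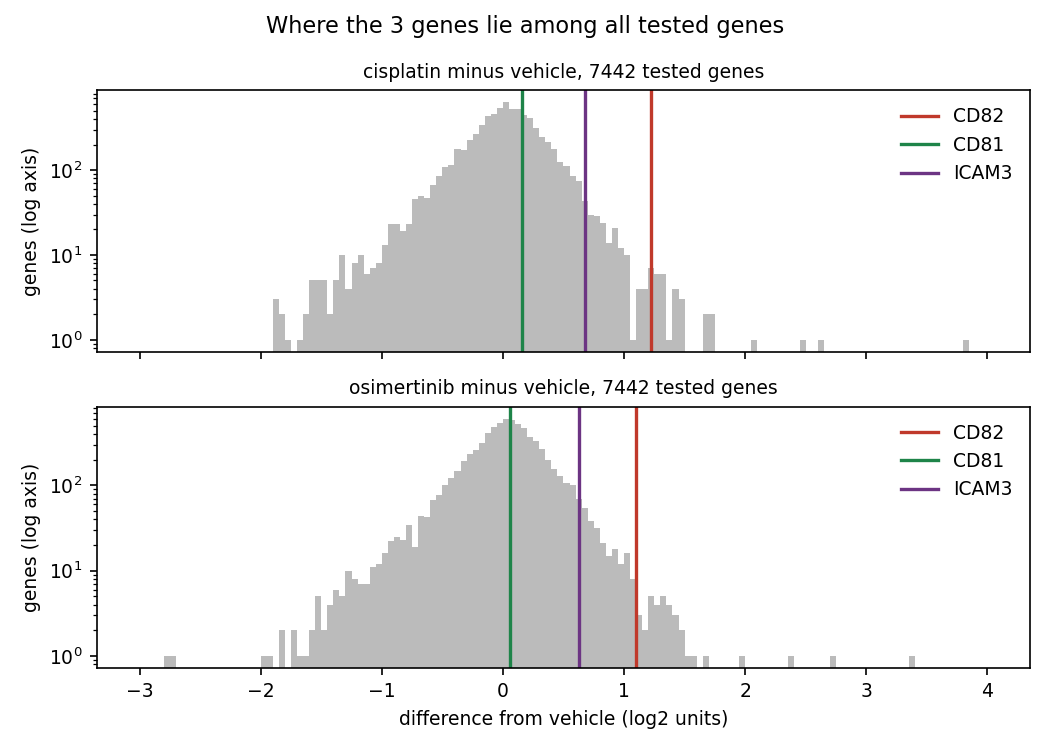
Differences from vehicle of all 7442 tested genes (horizontal axis in log2 units, vertical axis the number of genes per bin of 0.05 on a log scale), with lines at CD82, CD81 and ICAM3. CD82 lies in the upper tail for both drugs (1.22 and 1.10), ICAM3 on the upper flank (0.68 and 0.63) and CD81 near the centre (0.16 and 0.06), where the median of all genes is 0.032 with cisplatin and 0.037 with osimertinib.

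For CD82 and ICAM3 the sequence before the start of transcription was taken from RefSeq (GRCh38.p14) to show what their promoters hold. The set of promoters used gives 1 start for CD82 and 3 for ICAM3. It held none for CD81, so the promoter of CD81 was not examined. The 250 bases before the start of CD82, on chromosome 11 at chr11:44565413-44565662 on the plus strand, and before the outermost start of ICAM3, on chromosome 19 at chr19:10339625-10339874 on the minus strand, read 5′ to 3′ as follows, with matches to any searched motif in capitals.
CD82: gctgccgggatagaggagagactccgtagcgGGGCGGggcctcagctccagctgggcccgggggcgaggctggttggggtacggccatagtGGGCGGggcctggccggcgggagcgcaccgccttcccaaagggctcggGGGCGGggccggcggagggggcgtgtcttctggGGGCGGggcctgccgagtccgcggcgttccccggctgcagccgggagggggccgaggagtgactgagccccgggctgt
ICAM3: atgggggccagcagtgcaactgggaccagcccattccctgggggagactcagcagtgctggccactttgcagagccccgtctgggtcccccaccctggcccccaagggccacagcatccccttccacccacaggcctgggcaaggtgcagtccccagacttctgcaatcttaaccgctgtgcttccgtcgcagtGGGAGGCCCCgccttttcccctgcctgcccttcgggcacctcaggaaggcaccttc

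On both strands 9 motifs were searched: the GC box GGGCGG, the CCAAT box, TATAAA, the AP-1 site TGANTCA, the CRE TGACGTCA, the PU.1 core GAGGAAG, the heat shock element GAANNTTC, the NF-kB consensus and the p53 half-site. The capitals in CD82 are 4 GC boxes, which begin 219, 159, 111 and 78 bases before the start. Among 35116 RefSeq windows of the same length 42.6% held at least 1 GC box and 7.63% held at least 4. The other 8 motifs had no match in the CD82 window, whose G and C content was 77.2% against a median of 58.0% over all windows. The capitals in ICAM3 are 1 match to the NF-kB consensus that begins 56 bases before the start, a motif found in 9.96% of windows. The second start of ICAM3 had no match, and the window before the third held 2 GC boxes and 1 CCAAT box. CD82 and ICAM3 thus shared no searched motif in the windows shown. Such matches describe letters, not binding.

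The rest of the tetraspanin family gave the setting for CD82 and CD81. Of 33 family genes 32 were named and 15 reached the level limit, 13 of them apart from CD82 and CD81. With cisplatin 4 of these 13 rose and 0 fell by limma with Benjamini-Hochberg adjustment over all tested genes (at an unadjusted p under 0.05, 5 higher and 0 lower). With osimertinib 3 rose and 0 fell (3 higher and 1 lower unadjusted). Both counts include TSPAN3, whose rows disagree (its values are given after those of the other members). Without TSPAN3, a choice made after seeing the data, 3 of 12 rose with cisplatin (25.0%) and 2 of 12 with osimertinib (16.7%). Over all tested genes 16.5% and 16.9% were called higher, so these counts are no result about the family. The median log2 difference of the 13 was 0.177 with cisplatin and 0.0909 with osimertinib, against 0.0323 and 0.0369 over all tested genes. Without TSPAN3 it was 0.125 and 0.0688.

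TSPAN14, a partner that helps the metalloprotease ADAM10 to leave the endoplasmic reticulum, rose most clearly. Its vehicle arrays were at 7.46, 7.69 and 7.56, its cisplatin arrays at 8.29, 8.38 and 8.35 and its osimertinib arrays at 8.36, 8.45 and 8.37. Both drug groups stood clear of vehicle, but they overlapped each other. By limma with n = 3 per group, the log2 difference from vehicle was 0.77 with cisplatin (SE 0.0666, adjusted p = 2.63e-06). With osimertinib it was 0.82 (SE 0.0666, adjusted p = 1.49e-06). The related tetraspanins TSPAN17 and TSPAN5, which also bind ADAM10, were not called (TSPAN17 at 0.18 and 0.09, TSPAN5 at 0.07 and -0.05).

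CD63, a tetraspanin of late endosomes, lysosomes and exosomes, stood at 6.50, 6.64 and 6.69 with vehicle, at 6.88, 6.93 and 6.97 with cisplatin and at 6.90, 6.99 and 6.88 with osimertinib. It rose by 0.31 with each drug (SE 0.0775; limma adjusted p = 0.00768 and 0.00784). CD53, a tetraspanin of leukocytes, rose with cisplatin by 0.21 (SE 0.0602, limma adjusted p = 0.0167) and stood at 0.13 with osimertinib (adjusted p = 0.126). The CD53 call was lost without vehicle replicate 1 (adjusted p = 0.0777), vehicle replicate 3 (0.0661), cisplatin replicate 2 (0.0698) or cisplatin replicate 3 (0.0582), and without trend and robust fitting (0.0811). CD37, another leukocyte tetraspanin, stood at -0.17 and -0.18 and was not called, although with each array centred on its median it was called lower (-0.20, adjusted p = 0.0256, and -0.22, adjusted p = 0.0159), and CD9 (-0.01 and 0.12) and CD151 (-0.05 and -0.05), which bind integrins, were not called either.

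TSPAN3 was read by 2 rows of the table that went opposite ways, so no direction can be given for it. The brighter row, used in the counts above, was at 6.58, 6.55 and 6.48 with vehicle, 7.02, 7.28 and 7.23 with cisplatin and 7.30, 7.12 and 7.09 with osimertinib, a rise of 0.64 (SE 0.0878, limma adjusted p = 1.16e-04) and 0.63 (adjusted p = 1.22e-04). The other row was at 6.39, 6.24 and 6.58 with vehicle but at 4.33, 4.68 and 4.87 with cisplatin and 4.58, 4.27 and 4.71 with osimertinib, a difference of -1.78 and -1.88. The mean of the rows gave -0.57 (adjusted p = 0.00151) and -0.63 (adjusted p = 7.51e-04). Both rows carry the same RefSeq transcript in the annotation, and which part of the gene each one reads was not examined. CD82, CD81 and ICAM3 have 1 row each, so no such check exists for them.

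Between the drugs, of the 13 tetraspanins apart from CD82 and CD81, 0 were called by limma and 0 had an unadjusted p under 0.05. For CD82 and CD81 no test is given. The remaining 17 named family members, such as TSPAN31 at 4.13 and TSPAN33 at 3.42, lay under the level limit and were not tested. TSPAN13 stood at 3.24 with vehicle, 4.27 with cisplatin and 3.97 with osimertinib, and TSPAN33 at 3.55, 3.26 and 3.45. The TSPAN33 arrays of vehicle (3.33 to 3.71) overlapped those of cisplatin (3.11 to 3.48) and osimertinib (3.34 to 3.64). In the alternative without a level filter, 5 family members apart from CD82 and CD81 were called higher with cisplatin and 0 lower. With osimertinib these counts were 4 and 0, and both include TSPAN3.

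**Figure D3:**
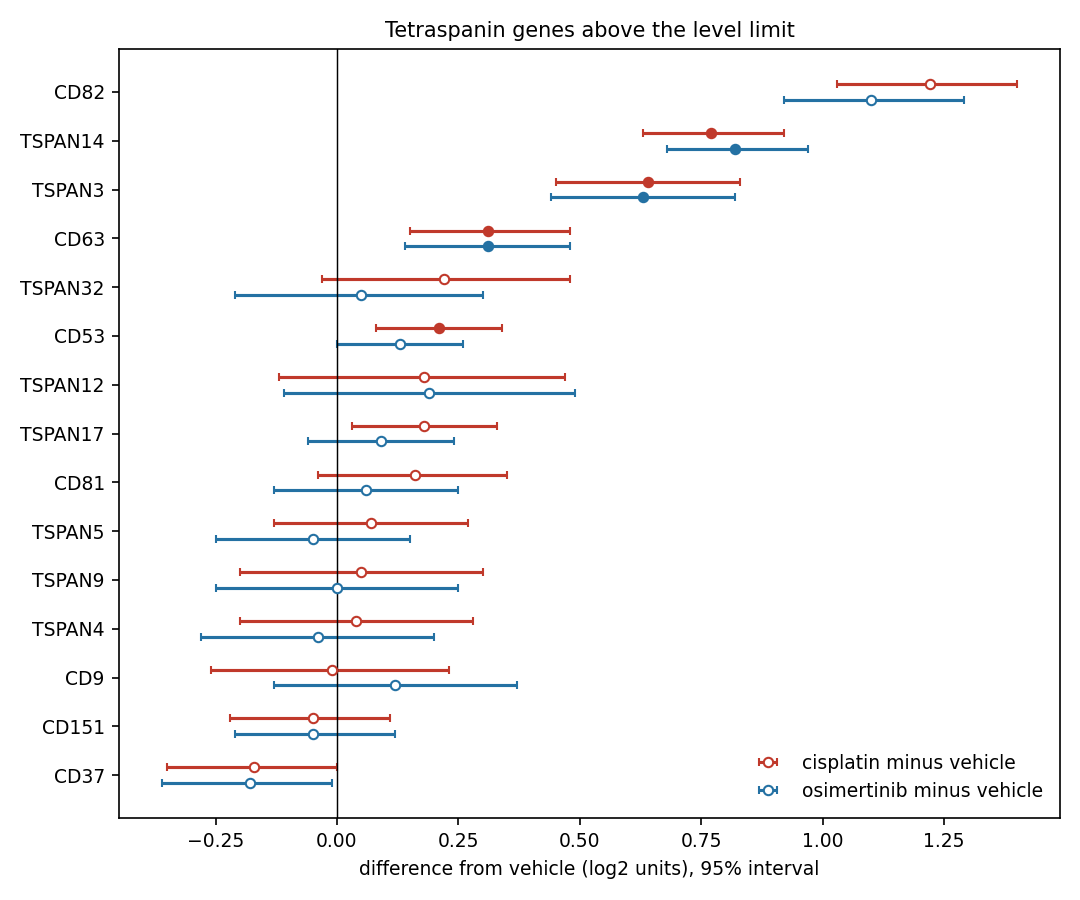
Difference from vehicle (log2 units, with 95% intervals from the limma fit) of the 15 tetraspanin genes above the level limit for cisplatin and osimertinib. Filled points passed an adjusted p of 0.05, and CD82 and CD81 are always drawn open because no test is given for them. CD82 lies highest at 1.22 and 1.10, followed by TSPAN14 at 0.77 and 0.82, while the intervals of CD81 include 0; the point of TSPAN3 is its brighter row.

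Among the ICAM genes and their receptors, 4 of 12 were named and 3 reached the level limit, ICAM3 included. ICAM1, the inducible ligand of LFA-1 and Mac-1, was bright and stood at 0.13 (95% interval from -0.05 to 0.30) with cisplatin and 0.02 (from -0.16 to 0.20) with osimertinib, and was not called. ICAM2 lay under the level limit at a mean of 4.16 and was not tested. It stood at 3.94 with vehicle, 4.37 with cisplatin and 4.18 with osimertinib, and the arrays of each drug overlapped those of vehicle. CD209, whose product DC-SIGN is a receptor of ICAM3, rose by 1.19 with cisplatin (SE 0.112, limma adjusted p = 5.59e-06) and by 0.67 with osimertinib (SE 0.112, adjusted p = 5.05e-04). Its vehicle arrays were at 6.33, 6.45 and 5.99, its cisplatin arrays at 7.28, 7.48 and 7.58 and its osimertinib arrays at 6.91, 6.96 and 6.91. CD209 was also lower with osimertinib than with cisplatin (-0.52, SE 0.112, limma adjusted p = 0.0341). The integrin chains that bind ICAM3 are not analysed here.

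Genes of proteins that join tetraspanins in the membrane were counted next: of 26 listed, 13 were named and 8 tested. With cisplatin 1 rose and 1 fell, and with osimertinib 3 rose and 0 fell (median -0.0414 and 0.00908, against 0.0323 and 0.0369 over all tested genes). These are 25.0% and 37.5% of the 8, where 31.0% and 30.6% of all tested genes were called, so the counts are no result about the partners. CD4, which is found with CD81 and CD82 on T cells and is also present on human monocytes, rose by 0.65 (SE 0.126, limma adjusted p = 0.0016) with cisplatin and 0.59 (SE 0.126, adjusted p = 0.00305) with osimertinib. CD36, a scavenger receptor, fell by 0.26 with cisplatin (adjusted p = 0.00882) and stood at -0.07 with osimertinib. BSG (0.24, adjusted p = 0.00321) and ADAM10 (0.18, adjusted p = 0.025) rose with osimertinib. The ADAM10 call was lost without any one of vehicle replicate 1 or 3 (adjusted p = 0.0793 each) and osimertinib replicate 1 (0.0878) or 2 (0.0856), and without trend and robust fitting (0.10). PTGFRN, an immunoglobulin-type partner of CD81, stood at -0.32 and -0.16 and was not called.

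The next list holds genes that switch integrins on or link ICAM tails to actin. Of 25 listed, 19 were named and 17 tested, and 2 rose and 0 fell with cisplatin (median 0.0296), 3 rose and 1 fell with osimertinib (median -0.00818). The share called was 11.8% and 23.5%, against 31.0% and 30.6% of all tested genes. LYN, a Src-family kinase of myeloid cells, rose by 0.91 (SE 0.0733, limma adjusted p = 1.32e-06) with cisplatin and 0.95 (SE 0.0733, adjusted p = 9.99e-07) with osimertinib. FERMT3, the kindlin of blood cells that activates leukocyte integrins, rose by 0.55 (SE 0.0837, adjusted p = 2.54e-04) and 0.29 (adjusted p = 0.0181); the second call was lost without vehicle replicate 3 (0.0868) or osimertinib replicate 1 (0.0567) or 2 (0.0604). RASSF5, an effector of the GTPase RAP1, rose with osimertinib by 0.34 (adjusted p = 0.0161), a call lost when vehicle replicate 3 (0.0793) or osimertinib replicate 2 (0.0841) was left out, and the kinase gene PTK2B fell by 0.23 (adjusted p = 0.00541). The linkers EZR (0.03 and 0.01), MSN (0.01 and 0.08) and RDX (0.22 and 0.16), which tie ICAM tails to actin, were not called.

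**Figure D4:**
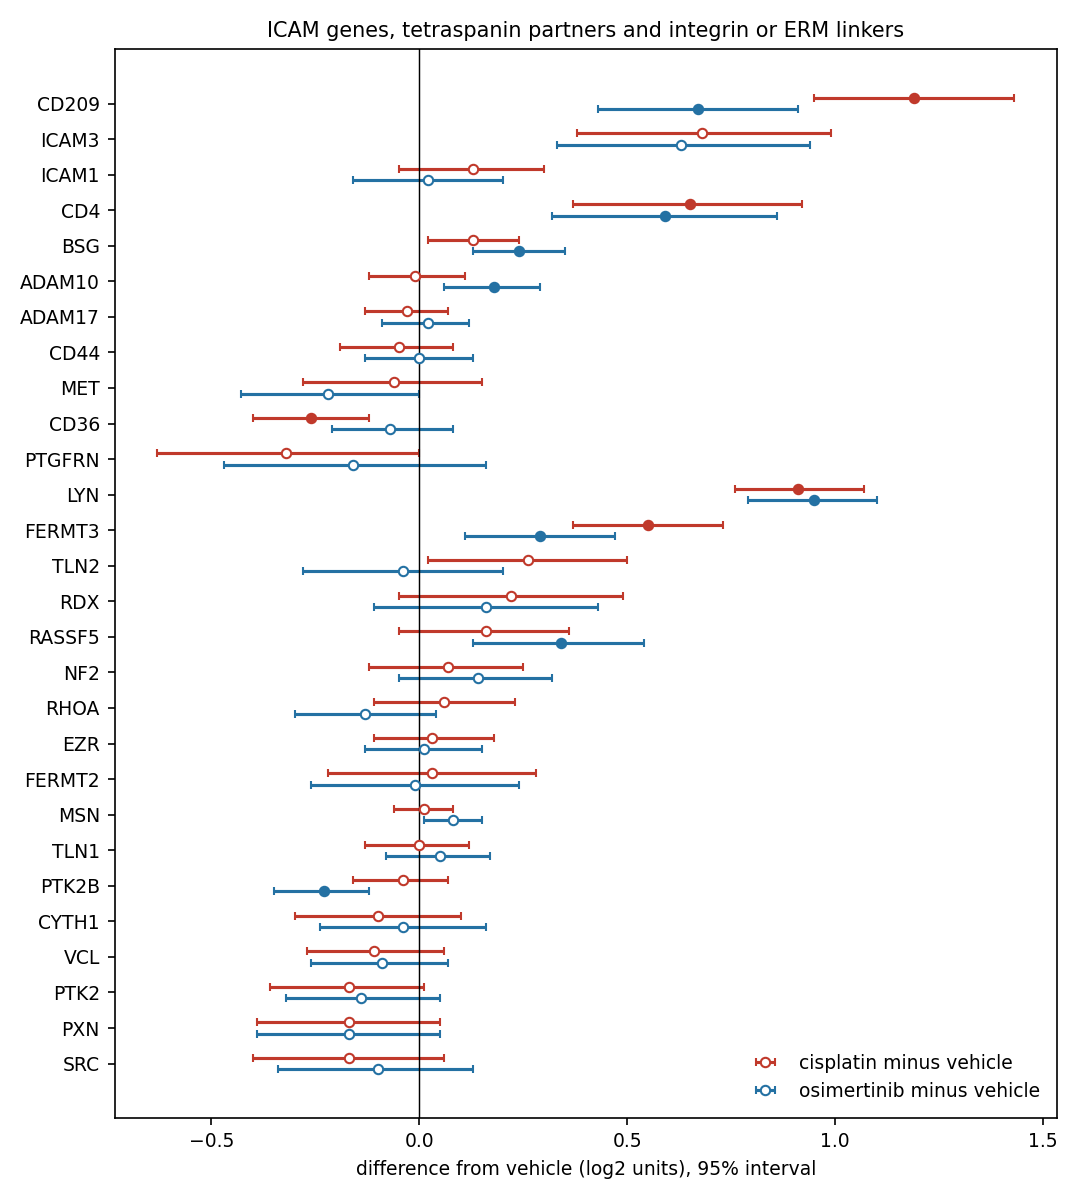
Difference from vehicle (log2 units, with 95% intervals from the limma fit) of the ICAM genes and receptors (CD209 to ICAM1), tetraspanin partners (CD4 to PTGFRN) and integrin activation or ERM linker genes (LYN to SRC) above the level limit. Filled points passed an adjusted p of 0.05, and ICAM3 is drawn open because no test is given for it. CD209, CD4, LYN and FERMT3 lie above 0 with filled points for both drugs, next to ICAM3 at 0.68 and 0.63, whereas ICAM1, ADAM17, CD44, EZR and MSN lie near 0.

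Because CD63 and CD81 are standard exosome proteins, genes of exosome and multivesicular body formation were counted too: 19 of 25 were named and all 19 of those were tested. With each drug 5 rose and 0 fell (at an unadjusted p under 0.05, 5 higher and 0 lower with cisplatin and 6 and 0 with osimertinib), and the medians were 0.0731 and 0.147, against 0.0323 and 0.0369 over all tested genes. These are 26.3% of the 19, where 16.5% and 16.9% of all tested genes were called higher. In either direction 31.0% and 30.6% of all tested genes were called, so the counts are no result about these genes. VPS37B, a subunit of the ESCRT-I complex, was also read by 2 rows. The brighter one stood at -0.11 and -0.18 and was not called, and the other differed by -0.50 and -0.38. With the mean over all rows 5 genes rose and 1 fell with each drug. SDCBP, which encodes syntenin-1, rose by 0.81 (SE 0.0867, limma adjusted p = 1.69e-05) with cisplatin and 0.91 (SE 0.0867, adjusted p = 6.07e-06) with osimertinib. SDC4, a syndecan that binds syntenin, rose by 0.58 (adjusted p = 4.12e-04) and 0.43 (adjusted p = 0.00362). STAM rose by 0.50 (adjusted p = 0.00142) and 0.45 (adjusted p = 0.00301), and LAMP2 by 0.25 (adjusted p = 0.0118; 0.0555 without cisplatin replicate 2) and 0.35 (adjusted p = 0.00138). HGS rose with cisplatin by 0.27 (adjusted p = 0.0122; 0.0582 without cisplatin replicate 2), and VPS4B with osimertinib by 0.34 (adjusted p = 0.00332).

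The genes most like each member were sought by Pearson's r over the 9 arrays among 6777 other tested protein-coding genes, as a description. For CD82 the arrays form a low cluster of 3 vehicle and a high cluster of 6 treated arrays, so r mostly reads that step. The highest values were those of the heat shock gene HSPA1B (0.993), the retinoic acid carrier CRABP2 (0.991), the chemokine CCL5 (0.991), SMAD7, an inhibitor of TGF-beta signalling (0.989), and the chemokine CCL22 (0.989). HSPA1B (1.32 and 1.32), CRABP2 (1.20 and 1.02) and SMAD7 (1.01 and 0.95) had differences close in size to those of CD82. CCL22 (2.49 and 2.36) and CCL5 (3.85 and 3.40) moved far more. The lowest values belonged to NPIPB5 (-0.994), ANKRD36B (-0.993), LRRFIP1 (-0.99), the meiotic gene MSH5 (-0.99) and NKTR (-0.989), all lower on the treated arrays.

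For CD81 the genes with the highest r were FERMT3 (0.954), ASMTL (0.937), CD209 (0.928), MXD1 (0.922) and SERTAD1 (0.922), each with a larger difference with cisplatin than with osimertinib. The lowest were HSPBAP1 (-0.945), DDX46 (-0.923), HILPDA (-0.913), EHMT1 (-0.905) and TATDN2 (-0.905). For ICAM3 they were BARX1 (0.959), CBX6 (0.944), VSIR (0.942), RALB (0.939) and LIPT2 (0.936) at the upper end and TMEM184B (-0.989), SP110 (-0.958), ZNF638 (-0.958), MAP3K2 (-0.953) and HGSNAT (-0.945) at the lower. Among the members themselves r was 0.885 between CD82 and ICAM3, 0.731 between CD82 and CD81 and 0.507 between CD81 and ICAM3. CD82 and ICAM3 both lay higher on all treated arrays than on any vehicle array, so their r mostly reads that step. The r values of CD81 rest on a range of only 5.34 to 5.63, with 3 equal osimertinib arrays.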

How the data were processed

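Per the labels and the series' design text, RNA of each of the 9 samples went onto its own array, and the scans were turned into gene-level values by a service provider. Per the submitters' processing notes the software was Affymetrix Power Tools, with no version. The deposited values were read as log2, since they run from 0.65 to 13.17; the background correction, the summarization and the base of the logarithm are not stated, and another base would change every fold. Columns differed by 0.0385 on average at equal ranks, so they had nearly equal distributions, and differences are relative to the bulk of transcripts.

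Rows were named from the platform annotation (16098 of 53617 with 1 gene each; all matched RefSeq, GRCh38.p14). For the 779 genes with several rows the row with the highest mean was taken. A gene was tested if its mean reached 4.28, the median of all gene means, and the 7442 such genes were fitted with limma 3.58.1 in R 4.3.3: 3 group means, empirical Bayes with trend and robust fitting, two-sided p-values adjusted by Benjamini-Hochberg within a contrast, called under 0.05. CD82, CD81 and ICAM3 were part of this fit, but no test is given for them. Background and detection were not measured. The fit was also run on simulated data with independent noise for each gene and array. That setting leaves out any correlation between genes or arrays, so nothing is read from it about these data.

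CD82, CD81, ICAM3 and the gene lists were chosen with earlier results of these data known. Any member of a list could be named, called ones first, together with the 5 genes of highest and lowest r for each of the 3. The list members ITGAL, ITGAM, ITGAX, ITGB2 and others without a named row were not analysed here. Alternatives were no level filter, the mean of all rows, quantile normalization or median centring on top, a plain variance model, replicate number as a block, each array left out, and only the groups compared.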

Additional observations from a re-analysis of the deposited data

How the results depend on the processing

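Under 16 alternatives the differences of CD82, CD81 and ICAM3 moved by less than 1 SD between replicates. CD82 ranged from 1.17 to 1.25 with cisplatin and from 1.06 to 1.16 with osimertinib, CD81 from 0.11 to 0.19 and from 0.01 to 0.09, and ICAM3 from 0.56 to 0.78 and from 0.51 to 0.72. Between the drugs CD82 ranged from -0.16 to -0.06, CD81 from -0.11 to -0.08 and ICAM3 from -0.15 to 0.04. With the replicate block, which is only a shared number here, CD82 stood at 1.22 and 1.10, with SE 0.0894, and the counts of called genes moved by less than 1.5 times. Over tested genes, deviations of same-numbered replicates from their group means correlated at -0.227 to 0.126, and those of differently numbered replicates at -0.118 to 0.197. The numbers thus gave no sign of pairing, which such correlations between small groups cannot exclude. The number of tetraspanins called apart from CD82 and CD81 ranged from 3 to 6 with cisplatin and from 3 to 4 with osimertinib, or 3 and 2 without TSPAN3, an alternative chosen after seeing the data. That 0 fell did not hold under every alternative: 1 fell with each drug with the mean of all rows (TSPAN3) and with median centring (CD37), and with osimertinib also with quantile normalization on top and without osimertinib replicate 1 (CD37). The number of genes called between the drugs, 130, was 76 without the level filter, 249 with quantile normalization on top, 239 with median centring, 63 without trend and robust fitting and 77 with only the 2 groups compared, and 54 to 147 when 1 array was left out (54 to 76 without cisplatin replicate 2 or 3 or any 1 osimertinib array). The causes were not tested. TSPAN3 reversed with the mean of its rows, to -0.57 and -0.63. Dim rows such as ICAM3 have no measured background.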

Other observations

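Other leukocyte adhesion genes were counted beside CD82 and ICAM3: of 37 listed, 23 were named and 12 tested, and 1 rose and 1 fell with cisplatin, 1 rose and 3 fell with osimertinib. These are 16.7% and 33.3% of the 12, where 31.0% and 30.6% of all tested genes were called. CD58, a ligand of the T cell receptor CD2, fell by 0.49 with osimertinib (SE 0.126, limma adjusted p = 0.0098) and by 0.35 with cisplatin (adjusted p = 0.0481, lost under 8 of 16 alternatives). CD226 fell by 0.27 with osimertinib (SE 0.0511, adjusted p = 0.00113) and was lower than with cisplatin (-0.30, adjusted p = 0.00917). NECTIN2, a ligand of CD226, rose by 0.41 with cisplatin (SE 0.101, adjusted p = 0.00685) and by 0.28 with osimertinib (adjusted p = 0.0489, lost under 13 of 16 alternatives). NCAM1 fell by 0.23 with osimertinib (adjusted p = 0.0393, lost under 8 of 16 alternatives). PECAM1 (0.15 and 0.33), CD99 (-0.04 and 0.03), ALCAM (0.10 and -0.10) and SPN (-0.15 and -0.01) were not called.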
